A study of Arabidopsis thaliana with 21 samples.

Results

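The seedlings described here were *cop1-4*, a weak mutant of *COP1*, set against the Col-0 accession after exposure to red light. All 3 *cop1-4* and all 3 Col-0 libraries labelled as red-light samples were taken, 6 of the 21 libraries of the series, and every gene with enough counts was described. The study asked how SPA proteins and phytochrome B act on the transcription factor PIF1, and it sequenced mRNA of seedlings. Its remaining libraries come from *spaQ*, a line mutated in all 4 *SPA* genes, in red light, and from *phyAphyB* plants with full-length or C-terminally deleted phyB-GFP in darkness and in red light. Of these, only the 3 *spaQ* libraries are used below, as another mutant of the same ligase.

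Both genotypes were raised in the same way. Sucrose-free MS medium was used. After 3 days in the cold, white light for 3 h was followed by 21 h without light, and then by far-red light at 10 µmol m-2 s-1. The seedlings then stayed in darkness until they were 3 days old, and received red light for 1 h before RNA was taken. The labels give the red light as 8 µmol m-2 s-1, and the study's methods give a lower value. Dark libraries of *cop1-4* and Col-0 were not analysed here. A difference that existed before the lamp was switched on therefore cannot be told apart from one that the red light produced. The labels do not say that replicates came from separate cultures, so the p-values measure the spread between these libraries, which may be technical.

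COP1 is the RING-finger subunit of a ubiquitin ligase that, together with SPA proteins and the CUL4-DDB1 scaffold, marks light-promoting transcription factors such as HY5 and HFR1 for degradation in darkness. Mutants of COP1 grow in the dark as if they were in the light, with short hypocotyls and open cotyledons. In *cop1-4* a premature stop codon leaves a shortened protein that keeps part of the activity, so the plants are viable. Light, through phytochromes and cryptochromes, lowers the activity of the same ligase in wild-type plants.

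Total counts per library were 16358264 to 19619022 in *cop1-4* and 20804090 to 23996624 in Col-0. Levels are given as CPM, the counts of a gene relative to the size of its library, scaled with TMM, a correction for libraries of unlike composition. The share of the 10 most counted features was 6.77 to 7.31% in *cop1-4* and 4.1 to 4.27% in Col-0. Replicates lay close together, with a biological coefficient of variation of 4.34% in *cop1-4* and 3.4% in Col-0. In a principal component analysis of 12940 genes the first component, with 84.8% of the variance, separated the mutants from Col-0.

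*COP1* itself had 39.4, 36.6 and 37.5 CPM in *cop1-4*, against 68.1, 66.1 and 70.4 CPM in Col-0. Its log2 fold change was -0.85 ± 0.06 (SE), with an edgeR adjusted p of 1.43e-12. All 3 *cop1-4* libraries lay below all 3 Col-0 libraries. A premature stop codon need not remove the transcript, so this level does not test the labels. Among the partners of COP1, *SPA1* had a log2 fold change of -0.55, *SPA2* of 0.14, *SPA3* of -0.44 and *SPA4* of -0.12, and *DET1*, a subunit of a related complex, of 0.43. The sign for *SPA2* turned to -0.06 with scaling by library size alone. Of the 11 genes of the COP1-SPA and DET1 list, 0 were called by edgeR under the fold limit given below and 0 by DESeq2, although all 11 had an unadjusted p under 0.05. Scaling by library size alone gave 1 call.

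The red-light transcriptome of *cop1-4* differed from that of Col-0 over much of the genome. Lists of photosynthesis, carbon fixation and photorespiration held mostly genes called higher. Lists of auxin, cold response, secondary walls, cuticular wax, flavonoid synthesis and seed storage held more genes called lower than higher. A gene was called when the edgeR quasi-likelihood test gave a Benjamini-Hochberg adjusted p under 0.05 and the log2 fold change was over 1 in either direction, that is a change of more than 2-fold. Of 20396 genes tested, 4850 or 23.8% were called. These were 2173 higher genes, 10.7% of those tested, and 2677 lower genes, 13.1% of those tested. Values in *cop1-4* and Col-0 did not overlap for 4813 of the 4850 called genes, and for 76% of all genes tested. They did not overlap for any gene below whose 3 values per genotype are printed. When libraries were scaled by size alone the median log2 fold change of all genes was -0.195 in place of 0.0034, and the called genes became 1618 higher and 3399 lower, 32.3% higher in place of 44.8%.

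Large changes were more often decreases. Past a log2 fold change of 2 there were 553 higher and 948 lower genes, and past 4, a 16-fold change, 111 higher and 197 lower genes. Called genes were spread over the 5 chromosomes, with 22.4 to 24.7% of the tested genes of each.

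**Figure D1:**
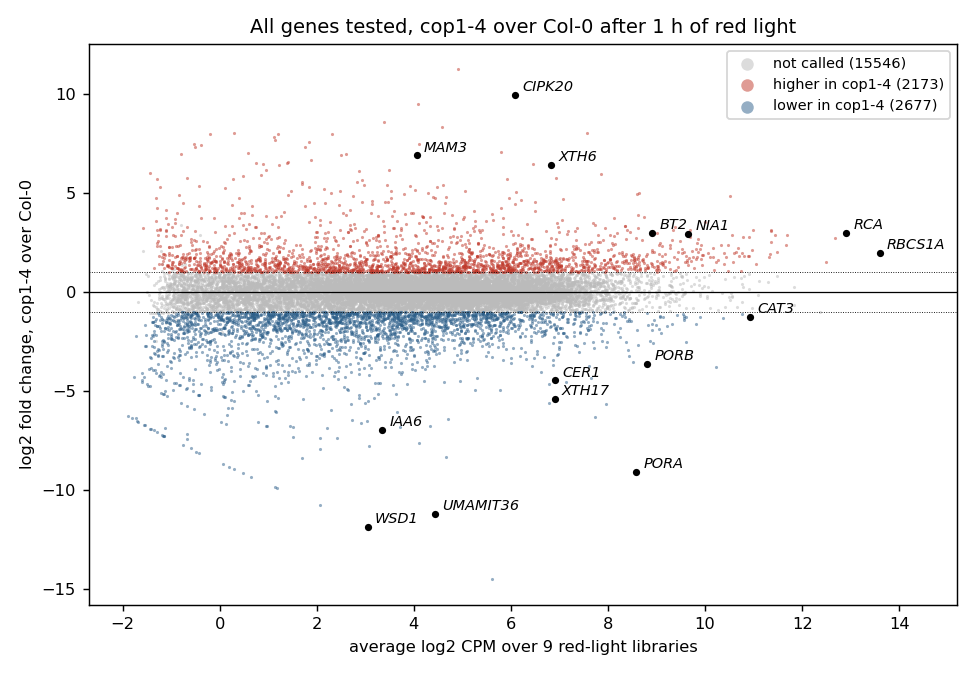
Log2 fold change of *cop1-4* over Col-0 (y axis) against average log2 CPM over the 9 red-light libraries (x axis), 1 point per gene for 20396 genes. Red points are the 2173 genes called higher in *cop1-4*, blue points the 2677 called lower, grey points the rest, and dotted lines mark the fold limit. Abundant genes such as *RCA* and *RBCS1A* lie above 0 and *PORA* and *PORB* far below it. Fitted values of genes with almost no counts in a genotype, along the lower left edge, depend on the prior count and are no estimates of size.

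The 12 largest increases and 12 largest decreases were taken among called genes whose average log2 CPM reached 3 and whose genotypes did not overlap. Among the increases was *CIPK20*, which encodes a CBL-interacting protein kinase (chromosome 5, 18586870 to 18588792, TAIR10.1). It had 105, 97.1 and 106 CPM in *cop1-4*, against 0.127, 0.043 and 0.114 CPM in Col-0. No Col-0 library had more than 3 counts, so the gene was at least 834-fold higher in *cop1-4*, with the floor of 3 counts per library in place of the Col-0 counts. AT5G62240, annotated as a cell cycle regulated microtubule-associated protein, had 45.8, 47.9 and 50.1 CPM in *cop1-4*, against 0, 0 and 0.038 CPM in Col-0, at least 388-fold higher. Likewise, the cytochrome P450 genes *CYP706A6* and *CYP71A22* were at least 195-fold and 103-fold higher, and AT1G65490, of unknown function, at least 129-fold higher.

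The other 7 increases had counts in both genotypes. *XTH6*, a xyloglucan endotransglucosylase of the cell wall, had 145, 143 and 147 CPM in *cop1-4*, against 1.7, 1.5 and 1.82 CPM in Col-0, an 85.8-fold change. *RPP4*, a resistance gene of the NLR class, averaged 156 ± 1.13 CPM in *cop1-4* and 1.73 ± 0.377 CPM in Col-0 (SD, n = 3 each), and it belongs to a cluster of related genes among which reads can be shared. *BCB*, a blue copper-binding protein, averaged 278 ± 10.4 CPM in *cop1-4* and 1.04 ± 0.199 CPM in Col-0 (SD, n = 3 each). AT1G22690 of the gibberellin-regulated family (32.8 against 0.0961 CPM on average in *cop1-4* and Col-0), AT1G70820, annotated as a phosphoglucomutase (85.6 against 0.624 CPM), and AT3G28270, a predicted transmembrane protein (11.3 against 0.153 CPM), were also among them. The last of the 12, *MAM3*, is described with the glucosinolate genes.

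Among the decreases, AT5G04120, annotated as a member of the phosphoglycerate mutase family, had 0 counts in every *cop1-4* library. It had 0, 0 and 0 CPM in *cop1-4*, against 139.6, 143 and 138 CPM in Col-0, so it was at least 810.1-fold lower in *cop1-4*. *UMAMIT36*, of a family of amino acid exporters, was at least 343-fold lower (0.0209 against 59.4 CPM in *cop1-4* and Col-0). *WSD1*, a wax ester synthase, was at least 128-fold lower, with 0, 0 and 0 CPM in *cop1-4*, against 22.4, 22.1 and 21.7 CPM in Col-0. AT3G43850, of unknown function, was at least 32.1-fold lower than in Col-0, and *spaQ* averaged 18.5 CPM of the same gene.

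The other decreases had counts above the floor in *cop1-4*, or in at least 1 of its libraries. *PORA*, a protochlorophyllide oxidoreductase of dark-grown seedlings, had 3.01, 1.1 and 2.27 CPM in *cop1-4*, against 1161, 1117 and 1110.3 CPM in Col-0. Its log2 fold change was -9.09 ± 0.15 (edgeR adjusted p = 2.61e-25). *PME61*, a pectin methylesterase, had mean levels of 0.233 against 46.9 CPM in *cop1-4* and Col-0. *RD20*, a caleosin of lipid bodies induced by drought, had 0.493 against 55.1 CPM, and *MRN1*, a triterpene synthase, had 0.318 against 34.9 CPM. The list was completed by *IAA6*, described with the auxin genes, by the peroxidase AT1G49570 (0.21 against 70.5 CPM), by the hydrolase AT4G17470 (0.224 against 21.5 CPM) and by AT2G28780, annotated as an efflux pump subunit (0.837 against 71.7 CPM).

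Counted over genes with at least 2 CPM in Col-0, 50 genes had no more than 3 counts in any *cop1-4* library. In *spaQ*, 32 of these 50 also had no more than 3 counts in any library. Conversely, 22 genes with at least 2 CPM in *cop1-4* had no more than 3 counts in any Col-0 library, and 17 of them had at least 2 CPM in *spaQ*. *CIPK20* is the neighbour of *DOG1*, a regulator of seed dormancy, 625 bases away on chromosome 5. *DOG1* had 8.34, 7.98 and 8.48 CPM in *cop1-4*, against 0.382, 0.172 and 0.152 CPM in Col-0, a log2 fold change of 5.11 ± 0.22. Both genes of this pair were higher in *cop1-4*. Whether the counting used strand is not given in the sources used here, so counts of overlapping genes on opposite strands carry some uncertainty.

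**Figure D2:**
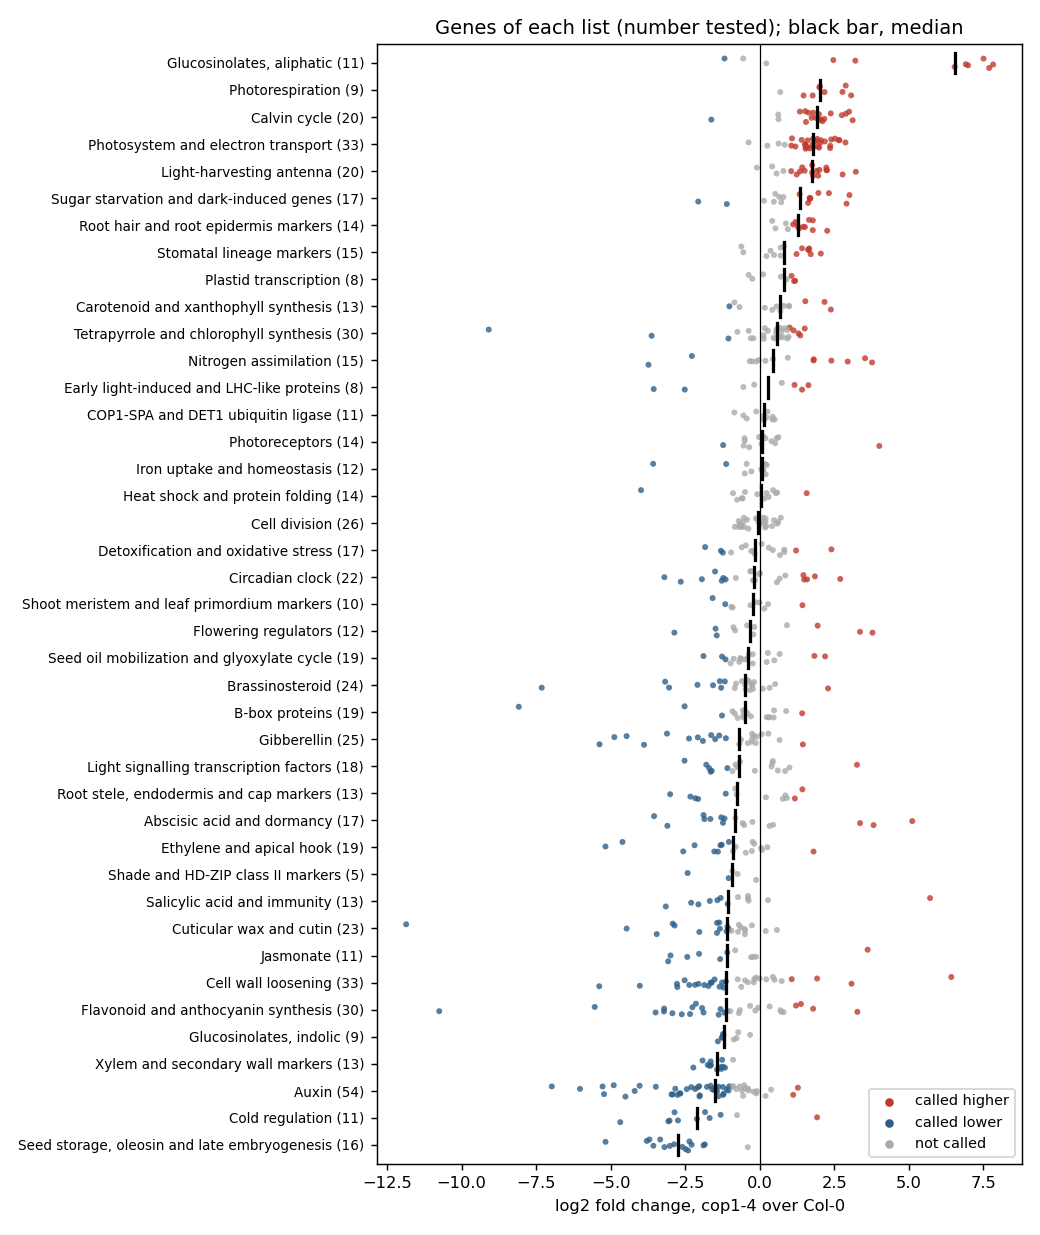
Log2 fold change of *cop1-4* over Col-0 (x axis) for the tested genes of each list (y axis, number tested in brackets), with 1 point per gene. Red points are called higher, blue points called lower, grey points not called, and the black bar is the list's median. Lists of photosynthesis lie mostly to the right of 0, and lists of auxin, cold response, secondary wall and seed storage mostly to the left.

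Photosynthesis genes encoded in the nucleus were higher in *cop1-4* almost throughout. The light-harvesting antenna proteins bind chlorophyll and pass excitation to the photosystems. Of 20 antenna genes tested, 16 were called higher and 0 lower, with a median log2 fold change of 1.76, against 10.7% of all genes called higher and a median of 0.0034. *LHCA1* of the photosystem I antenna had 2730.4, 2579 and 2889 CPM in *cop1-4*, against 563, 549.6 and 608 CPM in Col-0. *LHCB5* of the inner photosystem II antenna averaged 3863 ± 153 CPM in *cop1-4* and 1143 ± 30.6 CPM in Col-0 (SD, n = 3 each). Genotypes did not overlap for either gene. The largest change was that of *LHCB1.4*, with 586, 579 and 664 CPM in *cop1-4*, against 62.8, 58.6 and 74.3 CPM in Col-0 and a log2 fold change of 3.22 ± 0.07. *LHCB1* and *LHCB2* copies are near-identical and reads may be split among them, so their single values are uncertain. The 4 antenna genes not called included *LHCB4.3* with a log2 fold change of -0.1 and *LHCB4.2* with 0.79. Summed over the 20 genes, the antenna had 37490 to 41387 CPM in *cop1-4* and 11269 to 12498 CPM in Col-0. In RNA of seedlings a change in the number of cells of a type and a change in RNA per cell cannot be told apart, here and below.

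Genes of the photosystem cores moved the same way. Of 33 genes for photosystem subunits and electron transport, 29 were called higher and 0 lower, with a median log2 fold change of 1.78. All 13 tested photosystem I genes were called, with *PSAD-2* lowest at 1.06 and *PSAN* highest at 2.87. *PSBO1*, the main manganese-stabilising protein of the oxygen-evolving complex, had 4562, 4523 and 5237 CPM in *cop1-4*, against 933, 899 and 960.1 CPM in Col-0. *PSBR* reached a log2 fold change of 2.53 and the Rieske protein gene *PETC* 2.36. The 4 genes not called were *PSBS*, the sensor of excess light (0.26), the minor ferredoxin *FD1* (-0.38), the plastocyanin *PETE1* (0.63) and *ATPD* of the ATP synthase (0.84).

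Carbon fixation followed the same direction with a single exception. Of 20 Calvin cycle genes, 17 were called higher and 1 lower, and the median log2 fold change was 1.93. *RCA*, the activase of Rubisco, had 10639, 11032 and 12463 CPM in *cop1-4*, against 1430.5, 1355 and 1496 CPM in Col-0, a 7.97-fold change. *GAPB* of the chloroplast glyceraldehyde phosphate dehydrogenase averaged 4050.5 ± 148 CPM in *cop1-4* and 547 ± 9.48 CPM in Col-0 (SD, n = 3 each). The small subunit of Rubisco is encoded by several similar genes. *RBCS1A* had a log2 fold change of 1.99 and *RBCS3B* of 2.75, while *RBCS2B* fell to 399.8 CPM in *cop1-4* against 1232 CPM in Col-0, a log2 fold change of -1.62 ± 0.06 (edgeR adjusted p = 1.41e-18). Reads of these copies may be assigned to one another.

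Photorespiration, which recovers the carbon lost when Rubisco takes oxygen, had 8 of 9 genes called higher and 0 lower, with a median of 2.02. The aminotransferase genes *AGT* and *GGT1* had log2 fold changes of 3.06 and 2.88, and *SHM1*, the mitochondrial serine hydroxymethyltransferase, of 2.77. *GLDP1* of the glycine decarboxylase was the gene not called (0.69).

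Most chlorophyll synthesis genes did not pass the fold limit. Of 30 tetrapyrrole genes tested, 5 were called higher and 3 lower, a share of 26.7% against 23.8% of all genes. Without the fold limit, at an edgeR adjusted p under 0.05, 23 were higher and 6 lower. The median log2 fold change of the 30 genes was 0.58. The increases were *HEMA2* (1.36), *HEMB1*, just over the limit,, *CHLI1* of the magnesium chelatase (1.3), the methyltransferase *CHLM* (1.51) and the cyclase *CRD1* (1.13). The log2 fold change of *HEMA1*, the main glutamyl-tRNA reductase, was 0.46, and that of *CHLH* 0.55, both below the fold limit. The decreases were the photoreductases *PORA*, given above, and *PORB*, and the ferrochelatase *FC1* (-1.05). *PORB* had 96.6, 90.4 and 102 CPM in *cop1-4*, against 1213, 1191 and 1163 CPM in Col-0, a log2 fold change of -3.63 ± 0.06. *PORC*, the copy of light-grown leaves, was not called, with -0.75.

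Of 13 carotenoid genes, 3 were called higher and 1 lower, a share of 30.8% against 23.8% of all genes tested. *NPQ1*, the violaxanthin de-epoxidase, averaged 137 ± 2.37 CPM in *cop1-4* and 26.1 ± 0.663 CPM in Col-0 (SD, n = 3 each), and *LUT5* and *ABA1* had log2 fold changes of 2.17 and 1.53. *BCH2* was called lower (-1.02), and *PSY*, the first enzyme of the pathway, had -0.85. The early light-induced proteins, relatives of the antenna that accumulate under excess light, parted from the antenna genes. *ELIP1* had 54.2, 51.7 and 52.5 CPM in *cop1-4*, against 398, 412 and 456 CPM in *spaQ* and 633, 589 and 640.2 CPM in Col-0. *ELIP2* had a log2 fold change of -2.52 ± 0.05 against Col-0. The one-helix and stress-enhanced proteins *OHP2* (1.42), *OHP* (1.17) and *SEP1* (1.63) were called higher.

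**Figure D3:**
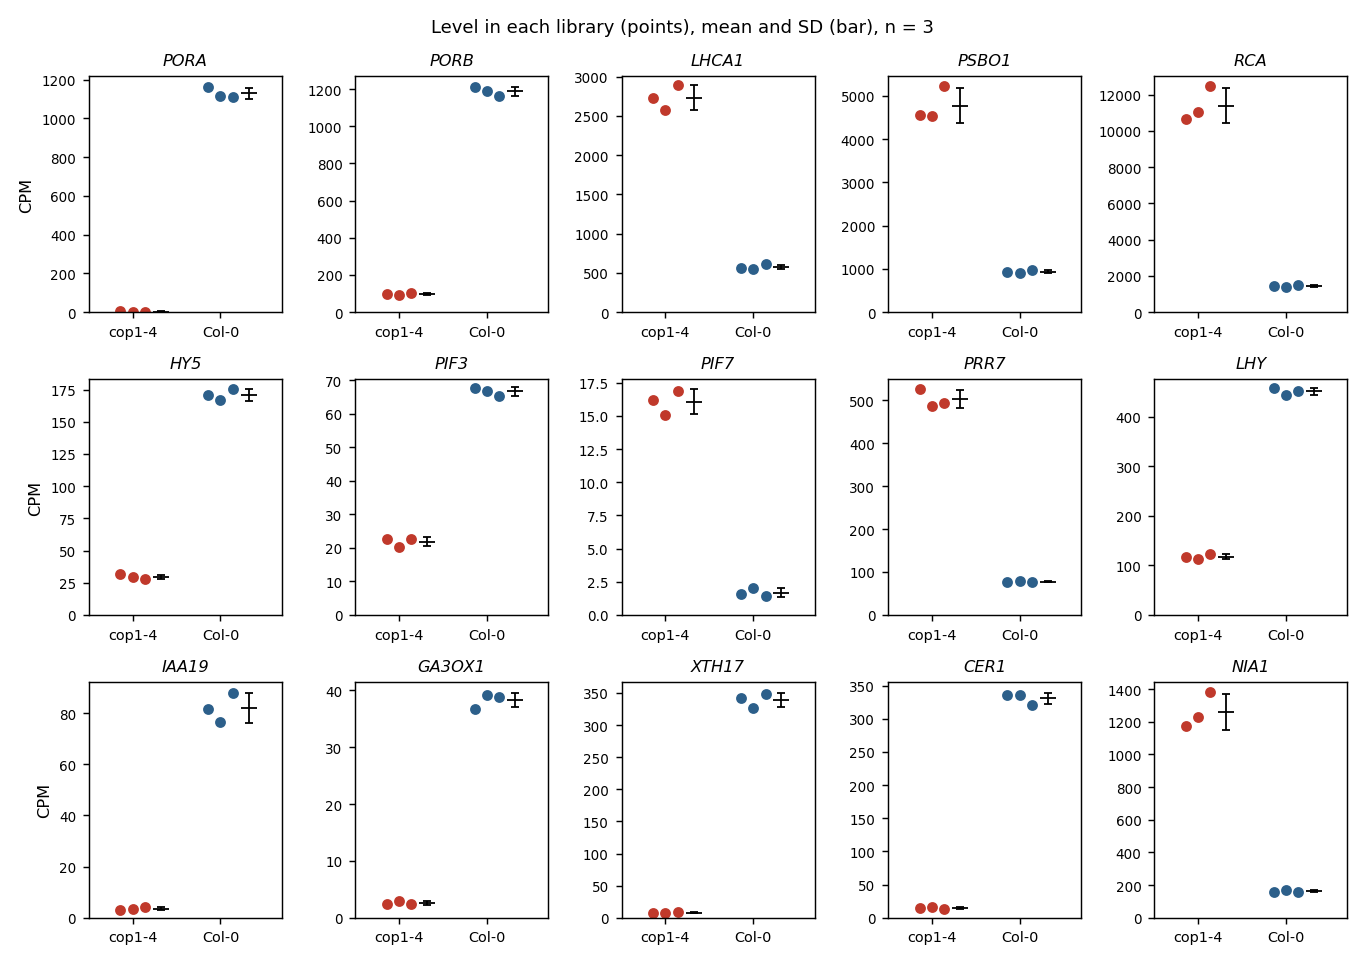
CPM on linear axes from 0 in each of 3 *cop1-4* libraries (red, left) and 3 Col-0 libraries (blue, right) for 15 genes, with the mean and SD beside the points. The groups do not overlap in any panel. *LHCA1*, *PSBO1*, *RCA*, *PIF7*, *PRR7* and *NIA1* are higher in *cop1-4* and the other 9 genes are lower.

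Transcripts of *HY5* and *HFR1*, whose proteins COP1 marks for degradation, were lower. *HY5*, the bZIP factor that promotes development in the light, had 31.4, 29.7 and 28.2 CPM in *cop1-4*, against 171, 167 and 176 CPM in Col-0. Its log2 fold change was -2.52 ± 0.05 (edgeR adjusted p = 3.42e-23). *HFR1*, an atypical bHLH protein, averaged 36.2 ± 2.7 CPM in *cop1-4* and 117 ± 2.36 CPM in Col-0 (SD, n = 3 each), also called lower. Its relatives *PAR2* (-1.79) and *PIL1* (-1.65) and the chloroplast regulator *GLK1* (-1.09) were called lower too. *HYH* and *GLK2* were not called, with log2 fold changes of 0.42 and -0.66. These counts are of mRNA and hold no information on protein levels.

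The PIF factors, bHLH proteins that bind the active phytochromes and repress light responses, moved in different directions. *PIF3* had 22.6, 20.3 and 22.7 CPM in *cop1-4*, against 67.9, 67 and 65.3 CPM in Col-0, a log2 fold change of -1.61 ± 0.07. *PIF7* had 16.2, 15.1 and 16.9 CPM in *cop1-4*, against 1.57, 2.06 and 1.41 CPM in Col-0, a log2 fold change of 3.26 ± 0.12. *PIF1*, the factor at the centre of the study, had 41.4 against 46.4 CPM on average in *cop1-4* and Col-0 and a log2 fold change of -0.16, with an edgeR adjusted p of 0.0139 that became 0.0594 without *cop1-4* replicate 2 and 0.0884 without Col-0 replicate 1. *PIF4* and *PIF5* had log2 fold changes of 0.39 and 0.85, below the fold limit. Over 18 light signalling factors 1 was called higher and 6 lower.

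Of 14 photoreceptor genes, *FKF1* alone was called higher and *CRY3* alone lower, a share of 14.3% against 23.8% of all genes tested. *FKF1*, a blue-light receptor of the flowering pathway, averaged 24.3 ± 0.757 CPM in *cop1-4* and 1.5 ± 0.204 CPM in Col-0 (SD, n = 3 each), and *CRY3* averaged 45.9 ± 1.18 CPM in *cop1-4* and 107 ± 5.7 CPM in Col-0 (SD, n = 3 each). *PHYA* and *PHYB* had log2 fold changes of -0.51 and -0.35, and *CRY1* and *CRY2* of 0.52 and -0.02, all below the limit. Among 19 B-box factors, 1 was called higher and 3 lower, near the share of all genes. *BBX22*, a positive factor in light development, averaged 83.2 ± 3.82 CPM in *cop1-4* and 31.1 ± 0.336 CPM in Col-0 (SD, n = 3 each). *BBX32* averaged 11.4 ± 0.99 CPM in *cop1-4* and 65.3 ± 3.28 CPM in Col-0 (SD, n = 3 each), *BBX30* had a log2 fold change of -1.27, and *BBX23* had 0 counts in every *cop1-4* library against 1.6 CPM on average in Col-0.

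Flavonoid synthesis, which makes ultraviolet-absorbing flavonols and anthocyanin pigments, was lower in *cop1-4*. Of 30 genes tested, 4 were called higher and 16 lower, with a median log2 fold change of -1.14. Early enzymes took 9 of the 16 decreases out of 10 tested. *TT4*, chalcone synthase, had 27.1, 32 and 31.2 CPM in *cop1-4*, against 139.7, 123 and 136 CPM in Col-0, a log2 fold change of -2.14 ± 0.08. *FLS1*, flavonol synthase, had 8.15, 7.41 and 8.48 CPM in *cop1-4*, against 30.7, 27.7 and 30.1 CPM in Col-0, and *PAL4* and *PAL1* at the entry of the phenylpropanoid pathway had log2 fold changes of -3.21 and -1.94. The late anthocyanin genes were near the floor, with 0.193 against 0.153 CPM on average in *cop1-4* and Col-0 for *DFR* and 0.0367 against 0.204 CPM for *LDOX*. *LDOX* was called lower, but had an edgeR adjusted p of 0.0587 without *cop1-4* replicate 1.

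The regulators of the pathway were split. *MYB111*, an activator of flavonol genes, had 0.752, 0.261 and 0.232 CPM in *cop1-4*, against 21, 16.7 and 18.9 CPM in Col-0. *PAP1*, an activator of anthocyanin genes, had 0 counts in all 3 *cop1-4* libraries against 10.2 CPM on average in Col-0, at least 59.1-fold lower. *MYBL2*, a repressor of anthocyanin synthesis, had 187, 184 and 196 CPM in *cop1-4*, against 16.9, 19.4 and 22.2 CPM in Col-0, a log2 fold change of 3.27 ± 0.07. *MYB12* and the nitrogen-responsive repressor *LBD38* were called higher too, with 1.22 and 1.79.

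The 250 bases before the annotated start of *TT4* are shown because chalcone synthase is a classical light-regulated gene. They are RefSeq sequence of TAIR10.1, and capitals mark the G-box CACGTG, the core that HY5 and the PIF factors recognise.
TT4 (chr5:4488226-4488475, plus strand): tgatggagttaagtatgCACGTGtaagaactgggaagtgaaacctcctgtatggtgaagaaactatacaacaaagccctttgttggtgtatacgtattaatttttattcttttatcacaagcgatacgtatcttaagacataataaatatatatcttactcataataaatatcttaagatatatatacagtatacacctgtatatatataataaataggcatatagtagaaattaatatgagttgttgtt
CACGTG reads the same on both strands. It stood in the same window of 23.3% of the 30 flavonoid genes and of 7.53% of 19930 protein-coding genes tested. The share was 9.95% of the genes called lower and 7.55% of those called higher. Lists with other directions of change also lay above the share of all genes, with 25% of 20 antenna genes and 40.9% of 22 clock genes. Among the 54 auxin genes, mostly called lower, it was 5.56%. A link between these letters and the direction of change was not tested.

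Seed transcripts were lower in *cop1-4*, and here 1 library stood apart. The 16 genes for storage proteins, oleosins and late embryogenesis proteins summed to 6.71, 151 and 4.24 CPM in *cop1-4*, against 305, 500 and 282 CPM in Col-0. *cop1-4* replicate 2 thus held far more of these transcripts than the other 2 *cop1-4* libraries, and still less than any Col-0 library. Of the 16 genes, 0 were called higher and 15 lower, with a median log2 fold change of -2.74, and 15 were called lower also without replicate 2, with a median of -5.77. *CRA1*, a 12S globulin, had 1.44, 68.5 and 0.697 CPM in *cop1-4*, against 99.9, 175 and 86.3 CPM in Col-0. Its log2 fold change was -2.28 ± 0.54, and -6.82 without replicate 2. In DESeq2 *CRA1* had an adjusted p of 0.132 and *CRC* one of 0.0928, and 11 of the 16 genes were called. With at least 10 counts asked of every library, 1 gene of the list was called, because that filter leaves out genes near the floor.

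*OLEO3* did not share the high value of replicate 2 to the same extent. It encodes an oleosin of the oil body surface and had 0.752, 1.36 and 0.465 CPM in *cop1-4*, against 29.9, 33.9 and 31.7 CPM in Col-0. *OLEO1* averaged 1.42 ± 1.89 CPM in *cop1-4* and 11.3 ± 4.86 CPM in Col-0 (SD, n = 3 each).

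The window before *OLEO1* is shown because G-boxes were frequent in this list, in 56.2% of its 16 genes against 7.53% of all. Capitals mark CACGTG and CACATG (or CATGTG on the other strand).
OLEO1 (chr4:12900180-12900429, plus strand): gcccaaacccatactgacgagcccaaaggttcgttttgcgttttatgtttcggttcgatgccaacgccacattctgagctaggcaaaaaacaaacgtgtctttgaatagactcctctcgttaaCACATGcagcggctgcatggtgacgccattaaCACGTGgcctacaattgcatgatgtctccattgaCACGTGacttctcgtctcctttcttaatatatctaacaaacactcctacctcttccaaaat
CACATG on either strand likewise stood in 56.2% of these 16 windows, against 11.4% of all. *SESA1* to *SESA4* are neighbours on chromosome 4 with related sequence.

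Of 19 genes that break down stored oil, 2 were called higher and 3 lower, or 26.3% against 23.8% of all genes tested. *ICL*, isocitrate lyase of the glyoxylate cycle, averaged 3539 ± 128 CPM in *cop1-4* and 2929.8 ± 192 CPM in Col-0 (SD, n = 3 each), below the fold limit. *MLS*, malate synthase, had 51.3, 59.5 and 54.5 CPM in *cop1-4*, against 202, 226 and 185 CPM in Col-0 and was called lower, as were *PCK1* (-1.15) and *ACX1* (-1.26). *PMDH2* and *PPDK* were called higher (2.19 and 1.83).

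Among 17 abscisic acid and dormancy genes, 3 were called higher and 8 lower. *CYP707A2*, which inactivates abscisic acid in germinating seeds, averaged 21.3 ± 2.41 CPM in *cop1-4* and 1.49 ± 0.392 CPM in Col-0 (SD, n = 3 each). *NCED3*, a rate-limiting enzyme of its synthesis under stress, averaged 1.12 ± 0.125 CPM in *cop1-4* and 13.2 ± 2.44 CPM in Col-0 (SD, n = 3 each). *ABI3* and *ABI5*, transcription factors of abscisic acid signalling in seeds, had log2 fold changes of -1.29 and -1.18, and the target *RD29B* of -3.1. *DOG1*, given above, belongs to the same list.

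Auxin genes were lower as a group. Auxin drives cell elongation in the hypocotyl, and Aux/IAA repressors and SAUR proteins are encoded by genes that it induces. Of 54 genes tested, 2 were called higher and 37 lower, 13.1% of all genes being called lower, with a median log2 fold change of -1.48. *IAA19* had 3.2, 3.39 and 4.24 CPM in *cop1-4*, against 81.7, 76.4 and 88 CPM in Col-0, a log2 fold change of -4.5 ± 0.09 (edgeR adjusted p = 6.94e-24). *IAA6* had 0.125, 0.156 and 0.348 CPM in *cop1-4*, against 25.4, 26.2 and 29.8 CPM in Col-0. *IAA17* and *IAA2* had log2 fold changes of -2.69 and -2.07.

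Of 18 SAUR genes of the SAUR19 clade and SAUR61 cluster, 14 were called lower and 0 higher. *SAUR19* had 0.501, 0.417 and 0.581 CPM in *cop1-4*, against 17.7, 18.4 and 20.1 CPM in Col-0 and *SAUR68* a mean of 0.075 against 5.36 CPM in *cop1-4* and Col-0. SAUR genes of a cluster are close copies, and their single values are uncertain. Genes for auxin synthesis were lower in part, with *TAA1* at -2.66 and *YUC8* at -1.47. The efflux carriers *PIN3*, *PIN4* and *PIN7* had -1.21, -1.39 and -1.49. The 2 genes called higher were *TAR2* (1.12) and the influx carrier *LAX1* (1.28).

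Of 25 gibberellin genes, 1 was called higher and 12 lower. Among 8 genes of synthesis, 3 were called lower and 0 higher. *GA20OX1* and *GA3OX1* encode the last steps of synthesis. *GA3OX1* had 2.38, 2.97 and 2.38 CPM in *cop1-4*, against 36.8, 39.2 and 38.9 CPM in Col-0, and *GA20OX1* averaged 0.364 ± 0.17 CPM in *cop1-4* and 10.8 ± 1.04 CPM in Col-0 (SD, n = 3 each). Of 6 genes of the GA 2-oxidases that remove active gibberellin, 5 were called lower, with *GA2OX8* at -5.37 and *GA2OX1* at -3.11. Of the DELLA repressors *RGL1* was called lower (-2.37), while *RGA* had a log2 fold change of -0.13. The gene called higher was *GASA6* (1.45).

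Brassinosteroids promote elongation beside auxin, and 1 of 24 of their genes was called higher and 8 lower. *BR6OX1*, an oxidase late in synthesis, had a log2 fold change of -3.04 and *DWF4*, a rate-limiting hydroxylase, of -1.29. The small bHLH genes *PRE5* and *PRE1*, which promote elongation, averaged 0.0383 against 6.99 CPM and 1.07 against 9.69 CPM in *cop1-4* and Col-0. *BRI1*, the receptor, was not called (-0.59). *BEE3* was the gene called higher (2.29).

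Ethylene, with auxin, keeps the apical hook of dark-grown seedlings closed. Of 19 genes, 1 was called higher and 9 lower. *ACS5*, a synthase of the ethylene precursor, had 0.501, 0.678 and 0.871 CPM in *cop1-4*, against 27, 23.7 and 24.3 CPM in Col-0, and *ACS6* and *ACS2* had log2 fold changes of -2.57 and -2.18. *HLS1*, which is needed for hook formation, averaged 1.6 ± 0.142 CPM in *cop1-4* and 4.01 ± 0.0501 CPM in Col-0 (SD, n = 3 each) and was called lower. *ACO4* of the last step was called higher (1.8).

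Expansins and xyloglucan endotransglucosylases loosen the wall of growing cells. Of 33 such genes, 4 were called higher and 17 lower. *XTH17* had 7.9, 7.72 and 8.77 CPM in *cop1-4*, against 343, 327 and 348 CPM in Col-0, and its close relative *XTH19* averaged 15.9 ± 0.5 CPM in *cop1-4* and 259 ± 6.05 CPM in Col-0 (SD, n = 3 each). *EXPA8* and *EXPA11* had log2 fold changes of -1.65 and -1.72. Against this direction, *XTH6*, given above, *XTH7* (3.08) and *XTH22* (1.92) were called higher. The list thus held changes in both directions.

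Promoter windows of the growth genes are shown because CACATG, a variant of the G-box that PIF factors also bind, was frequent among the auxin genes. The windows of *IAA19*, *SAUR19* and *XTH17* follow, with the G-box in capitals. The variant CACATG is in capitals too, also where it reads CATGTG on the other strand.
IAA19 (chr3:5263751-5264000, plus strand): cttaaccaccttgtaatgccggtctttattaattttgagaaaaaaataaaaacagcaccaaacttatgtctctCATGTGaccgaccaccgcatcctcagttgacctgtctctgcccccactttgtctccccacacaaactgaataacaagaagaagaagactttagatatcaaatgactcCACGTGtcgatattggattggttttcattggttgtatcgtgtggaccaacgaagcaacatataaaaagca
SAUR19 (chr5:5963406-5963655, minus strand): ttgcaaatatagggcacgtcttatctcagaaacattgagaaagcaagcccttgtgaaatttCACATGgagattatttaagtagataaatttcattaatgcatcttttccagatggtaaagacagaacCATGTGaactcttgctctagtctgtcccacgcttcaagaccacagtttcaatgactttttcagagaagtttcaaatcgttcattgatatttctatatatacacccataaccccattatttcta
XTH17 (chr1:24256804-24257053, plus strand): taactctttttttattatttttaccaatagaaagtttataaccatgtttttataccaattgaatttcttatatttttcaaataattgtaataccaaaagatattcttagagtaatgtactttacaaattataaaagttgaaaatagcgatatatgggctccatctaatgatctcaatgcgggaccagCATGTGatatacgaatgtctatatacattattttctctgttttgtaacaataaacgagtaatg
CACATG stood on either strand in 42.6% of 54 auxin genes, 37.5% of 24 brassinosteroid genes and 28% of 25 gibberellin genes, against 11.4% of all protein-coding genes tested. Other lists also lay above the share of all genes, with 21.2% of 33 cell wall loosening genes, 27.3% of 11 jasmonate genes and 26.7% of 15 stomatal lineage genes, a list with 7 genes called higher and 0 lower. The letters stood in 16.4% of the genes called lower and 10.8% of those called higher. These shares describe letters in a window, and SAUR copies share sequence.

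Genes of cuticular wax, secondary walls and the endodermal barrier were lower too. Of 23 wax and cutin genes, 0 were called higher and 13 lower. *CER1*, which forms the alkanes of the wax, had 15, 16.6 and 13.2 CPM in *cop1-4*, against 335, 336 and 321 CPM in Col-0, a log2 fold change of -4.46 ± 0.07. *KCS1*, *KCS2* and *CER6* of fatty acid elongation had -2.03, -2.92 and -1.04.

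Among markers of other cell types, xylem and secondary wall genes had 0 of 13 called higher and 12 lower. *IRX3*, a cellulose synthase of the secondary wall, averaged 13.2 ± 0.506 CPM in *cop1-4* and 31.7 ± 0.423 CPM in Col-0 (SD, n = 3 each). The Casparian strip genes *CASP1*, *CASP2* and *CASP5* of the endodermis had log2 fold changes of -2.07, -2.16 and -3, whereas *SCR*, which specifies the same tissue, had 0.21. *CASP5* had 28.8, 28.5 and 30.8 CPM in *cop1-4*, against 229, 234 and 244 CPM in Col-0. The stem cell genes *WOX5* and *PLT1* of the same list were called higher (1.43 and 1.18), and 5 of its 13 genes were called lower.

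Root hair and stomatal markers went the other way. Of 14 root hair and root epidermis genes, 10 were called higher and 0 lower, and they summed to 137 to 182 CPM in *cop1-4* and 58.5 to 70.0 CPM in Col-0. *RHS19* averaged 25.6 against 7.49 CPM in *cop1-4* and Col-0, and *RSL2*, a bHLH factor of hair growth, had 4.07, 5.16 and 5.75 CPM in *cop1-4*, against 1.23, 1.07 and 0.836 CPM in Col-0. Of 15 genes of the stomatal lineage, 7 were called higher and 0 lower. *FAMA*, the factor of guard cell fate, averaged 12.8 ± 0.418 CPM in *cop1-4* and 4.15 ± 0.482 CPM in Col-0 (SD, n = 3 each), and *SDD1* averaged 14.6 ± 1.34 CPM in *cop1-4* and 3.5 ± 0.329 CPM in Col-0 (SD, n = 3 each). *SPCH* and *MUTE*, which act earlier, were not called (0.36 and 0.81).

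Cell division genes did not move past the limit. Of 26 cyclins, kinases and replication factors, 0 were called by edgeR and 0 by DESeq2, although 17 had an unadjusted edgeR p under 0.05 and 16 an adjusted one. *CYCB1.1* had a log2 fold change of 0.62 and *MCM5* of -0.84. Scaling by library size alone gave 1 called gene. Of 10 meristem and leaf primordium markers, *CUC2* was called higher (1.43) and *KNAT1* (-1.16) and *LNG1* (-1.58) lower. This was 30% of the list, against 23.8% of all genes tested.

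Clock genes were shifted in both directions. Of 22, 5 were called higher and 7 lower. *PRR7*, a daytime repressor of the clock, had 527, 487 and 494 CPM in *cop1-4*, against 75.7, 79 and 77.5 CPM in Col-0, a log2 fold change of 2.7 ± 0.05. *LHY*, a MYB factor of the morning, had 116, 113 and 123 CPM in *cop1-4*, against 459, 444 and 452 CPM in Col-0, while *CCA1* had -0.8. *PRR5* averaged 64.2 ± 1.02 CPM in *cop1-4* and 17.8 ± 0.555 CPM in Col-0 (SD, n = 3 each), *RVE2* and *BOA* had log2 fold changes of -3.2 and -2.65, and *TOC1* and *GI* were not called (0.67 and -0.28). The labels give no hour of sampling, so phase and level cannot be told apart.

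The evening element AAAATATCT, which clock MYB factors bind, stood on either strand in the windows of 22.7% of the 22 clock genes, 4.25% of the genes called higher, 1.6% of those called lower and 2.44% of all. The window of *PRR5* is shown with its copy, read on the other strand, in capitals.
PRR5 (chr5:8358547-8358796, minus strand): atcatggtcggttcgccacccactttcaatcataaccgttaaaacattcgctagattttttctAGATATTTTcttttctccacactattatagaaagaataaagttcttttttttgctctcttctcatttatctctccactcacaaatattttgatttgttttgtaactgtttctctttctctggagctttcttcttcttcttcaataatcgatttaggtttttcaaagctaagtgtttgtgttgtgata
The same letters stood before *RVE7*, called higher (1.59), before *BOA*, called lower, and before *LUX* and *TOC1*, which were not called.

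Flowering regulators were split as well, with 3 of 12 called higher and 3 lower. *SOC1*, which promotes flowering, had 17.2, 13.9 and 16.1 CPM in *cop1-4*, against 1.1, 1.46 and 0.874 CPM in Col-0, and *SVP*, which delays it, had 72.3, 68.4 and 72.5 CPM in *cop1-4*, against 7.13, 7.18 and 6.42 CPM in Col-0. *CDF1* was called higher (1.94), and *TOE1* (-1.48), *SMZ* (-1.44) and *TOE3* (-2.86) were called lower.

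Nitrate reduction and nitrogen assimilation in the chloroplast were higher. Of 15 genes, 6 were called higher and 2 lower. The nitrate reductase genes had 1171, 1227 and 1382 CPM in *cop1-4*, against 157, 172 and 161 CPM in Col-0 for *NIA1*, and log2 fold changes of 2.95 and 2.4 for *NIA1* and *NIA2*. *GLN2* and *GLU1*, the chloroplast glutamine synthetase and glutamate synthase, had 1.81 and 1.81. *ASN1*, the asparagine synthetase of darkness and sugar shortage, had 1596, 1525 and 1678 CPM in *cop1-4*, against 138, 143 and 135 CPM in Col-0, and *ASN2* had a log2 fold change of 3.77. The nitrate transporters *NRT1.1* and *NRT1.5* were called lower (-2.28 and -3.73).

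Other genes that rise under sugar starvation or in darkness were higher with *ASN1*. Of 17, 9 were called higher and 2 lower. *BT2* averaged 649.6 ± 9.82 CPM in *cop1-4* and 80.8 ± 2.21 CPM in Col-0 (SD, n = 3 each) and *SEN1* averaged 791 ± 46.6 CPM in *cop1-4* and 158 ± 12 CPM in Col-0 (SD, n = 3 each). *BCAT2* and *DIN10* had log2 fold changes of 2.91 and 1.97, and *EXL4* was called lower (-2.06).

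Glucosinolates are sulfur-rich defence compounds of the mustard family, and their genes moved both ways. Of 11 tested genes of the aliphatic branch, made from methionine, 8 were called higher and 1 lower. *MAM3*, a methylthioalkylmalate synthase that elongates methionine, had 36.4, 36.8 and 32.5 CPM in *cop1-4*, against 0.255, 0.215 and 0.38 CPM in Col-0, and *MAM1* averaged 12.9 ± 1.36 CPM in *cop1-4* and 0.0932 ± 0.0816 CPM in Col-0 (SD, n = 3 each). *CYP83A1* and *BCAT4* were at least 32.9-fold and 36.1-fold higher, with no more than 3 counts in any Col-0 library. *MYB28*, the activator of the branch, averaged 12.5 ± 1.36 CPM in *cop1-4* and 2.26 ± 0.216 CPM in Col-0 (SD, n = 3 each). Of 9 genes of the indolic branch, made from tryptophan, 0 were called higher and 5 lower, with *CYP83B1* at -1.23 and *MYB51* at -1.26.

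Among genes called in the salicylic acid, jasmonate and cold lists, most were lower. Of 13 salicylic acid genes, 1 was called higher and 7 lower, with *EDS5* at -2.3 and *WRKY70* at -1.68. Log2 fold changes over these 13 genes ran from -3.15 to 5.71, so the largest change in size was an increase. Of 11 jasmonate genes, 1 was called higher and 6 lower. *VSP2* averaged 0.325 against 2.77 CPM and *JAZ1* 9.18 against 37.7 CPM in *cop1-4* and Col-0, and *AOC2* was the gene called higher (3.62). Of 11 cold-regulated genes, 1 was called higher and 9 lower. *RD29A* had 39.2, 36.5 and 38.7 CPM in *cop1-4*, against 259, 305 and 265 CPM in Col-0 and *ERD10* a log2 fold change of -2.74. *COR27*, a repressor in light signalling and the clock, was the exception (1.92).

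Chaperone genes had 1 of 14 called higher and 1 lower, a share of 14.3% against 23.8% of all genes tested. Iron genes had 0 of 12 called higher and 2 lower, or 16.7%, against 13.1% of all genes called lower. Leaving out *cop1-4* replicate 1 gave 6 chaperone genes and 3 iron genes. Among 17 genes of oxidative stress, 2 were called higher and 3 lower, or 29.4%. *CSD2*, the chloroplast copper/zinc superoxide dismutase, had 551, 551 and 621 CPM in *cop1-4*, against 150.3, 132 and 174 CPM in *spaQ* and 116, 104 and 105 CPM in Col-0. *CAT3*, a catalase, averaged 1529.6 ± 84.8 CPM in *cop1-4* and 3611 ± 129 CPM in Col-0 (SD, n = 3 each).

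The *cop1-4* seedlings were also set against *spaQ*, to show where the weak *cop1* allele differed from loss of the SPA partners. In *spaQ* the *SPA1* transcript averaged 40.0 CPM, against 310.5 CPM in Col-0, and *SPA3* 24.5 against 149.9 CPM. *SPA2* and *SPA4* had log2 fold changes of *spaQ* over Col-0 of 0.10 and 0.33, so the means of these transcripts were not lower in *spaQ*. Of the same 20396 genes, 1737 or 8.52% were called between the mutants. These were 1149 genes higher in *cop1-4*, 5.63% of those tested, and 588 genes lower in *cop1-4*, 2.88%.

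Seed transcripts were lower in *cop1-4* than in *spaQ*. They summed to 6.71, 151 and 4.24 CPM in *cop1-4*, against 1285, 1525 and 2295 CPM in *spaQ*. Of the 16 genes, 14 were called lower in *cop1-4* than in *spaQ*, and 15 without *cop1-4* replicate 2. *CRA1* had 1.44, 68.5 and 0.697 CPM in *cop1-4*, against 557, 699 and 1042 CPM in *spaQ*. On the log2 scale *cop1-4* over *spaQ* stood at -4.95 ± 0.56. *OLEO3* averaged 0.858 CPM in *cop1-4* and 0.821 CPM in *spaQ* and was not called.

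Flavonoid genes were also lower. Of 30, 19 were called lower in *cop1-4* than in *spaQ* and 0 higher. *TT4* averaged 30.1 CPM in *cop1-4* and 391 CPM in *spaQ*. On the log2 scale this was -3.7 ± 0.08 (edgeR adjusted p = 7.03e-22). *FLS1* had a log2 fold change of -3.71 ± 0.08, and its activator *MYB12* averaged 4.29 CPM in *cop1-4* and 31.4 CPM in *spaQ*. The late gene *DFR*, near the floor in *cop1-4*, averaged 3.94 CPM in *spaQ*. With at least 10 counts asked of every library, 8 flavonoid genes and 1 seed gene were called against *spaQ*.

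**Figure D4:**
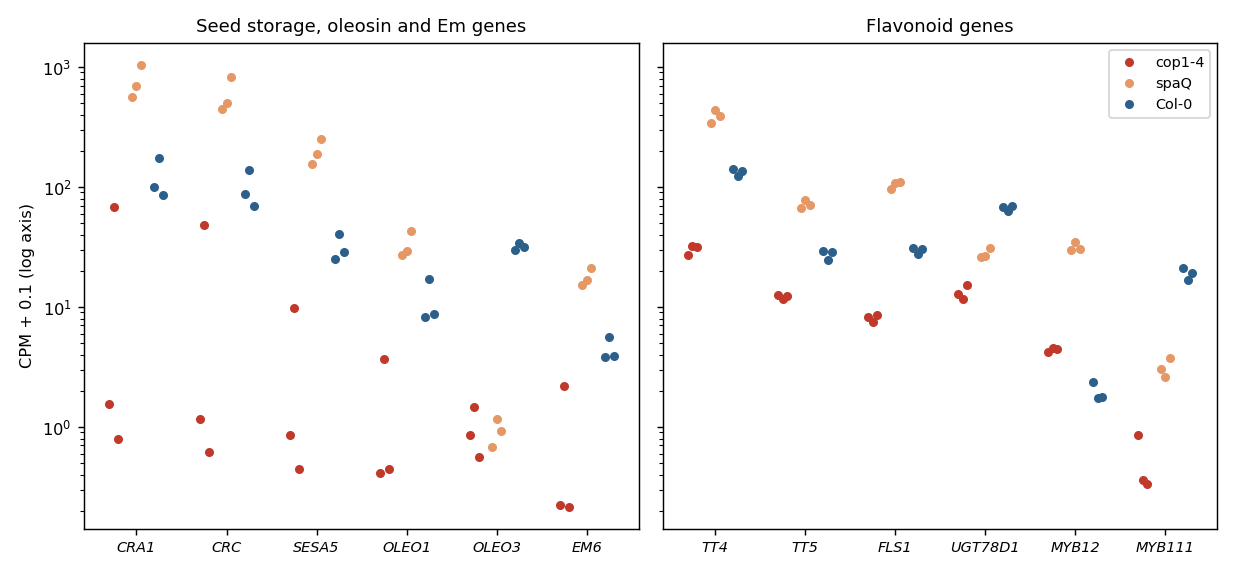
CPM plus 0.1 on a log axis (y axis) in each library of *cop1-4* (red), *spaQ* (orange) and Col-0 (blue) for 6 seed genes (left) and 6 flavonoid genes (right). For *CRA1*, *CRC*, *SESA5*, *OLEO1* and *EM6* a single *cop1-4* point, replicate 2, lies far above the other 2, and all *spaQ* points lie above all *cop1-4* points. For *TT4*, *TT5* and *FLS1* the order of every library is *cop1-4* lowest, Col-0 between and *spaQ* highest.

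Among 20 antenna genes, 3 were called higher in *cop1-4* than in *spaQ* and 0 lower, with a median log2 fold change of 0.65. Of all genes tested, 5.63% were called higher and 2.88% lower in this comparison. Their summed level was 37490 to 41387 CPM in *cop1-4*, against 23278 to 24723 CPM in *spaQ*. *LHCB1.4*, a near-identical copy whose own value is uncertain, averaged 609 CPM in *cop1-4* and 64.4 CPM in *spaQ*. Of 13 markers of the root stele, endodermis and cap, 4 were called higher and 0 lower, with *CASP5* averaging 29.4 CPM in *cop1-4* and 6.77 CPM in *spaQ*. Of 15 nitrogen genes, 1 was called higher and 1 lower, beside 8.52% of all genes called in either direction, so the list did not move 1 way. The nitrate transporter gene *NRT1.5* averaged 17.5 CPM in *cop1-4*, against 1.26 CPM in *spaQ*, with a log2 ratio of 3.8 ± 0.13. *CSD2* was higher by 1.92 ± 0.07 on the log2 scale. The median log2 fold change of *cop1-4* over *spaQ* was 0.06 over the 33 photosystem and electron transport genes, -0.13 over the 20 Calvin cycle genes and -0.15 over the 9 photorespiration genes.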

How the data were processed

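The authors ran FastQC on the reads, mapped them with TopHat and Bowtie2 (genome TAIR10), counted them per gene with HTSeq and deposited the raw counts. Raw counts carry no normalization, the library kit does not mark strand and the strand setting of the counting is not given in the sources used here. The table holds 33655 features, of which 32548 are loci with names in TAIR10.1, whose RefSeq annotation gave symbols, coordinates and promoter windows of 250 bases.

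The 9 red-light libraries of *cop1-4*, *spaQ* and Col-0 were fitted together in edgeR 4.0.16 (R 4.3.3) with TMM scaling, filterByExpr by group and quasi-likelihood tests, with p-values adjusted by Benjamini-Hochberg across 20396 genes. The study used DESeq2, run here (1.42.0) as an alternative, and its methods write a log2 limit of 2, also tried. The floor of 3 counts was 0.114 to 0.188 CPM in *cop1-4* and Col-0 and covers counting error only. On simulated counts 200 of 200 changed genes were recovered with 1 false call among 19998 genes. These changes were balanced up and down, past the fold limit, and spared genes of low level, while all other genes kept Col-0 levels. Far fewer genes were changed than the 23.8% called here, so scaling for unlike composition and genes near the floor were not tested.

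Members and lists were chosen with earlier results of these data known. Named genes were *COP1* and *SPA1* to *SPA4*, the 12 largest increases and 12 largest decreases whose average log2 CPM reached 3 and whose genotypes did not overlap, up to 4 called genes per list with the largest change and at least 1 CPM in a genotype, and members whose role a list is named for. Of 776 list members 761 matched by name. Some members are counted in their lists but not reported here by name. Alternatives changed scaling, filter, tool, samples, replicate block and fold limit, and left out each replicate.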

Additional observations from a re-analysis of the deposited data

Results flagged for a closer look

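Each gene below was called lower in *cop1-4* than in Col-0 and higher in *spaQ* than in Col-0, and the difference between the mutants passed the edgeR test of *cop1-4* over *spaQ*. Only genes named by the rule given above were taken, so these are not all such genes among those tested. Values are log2 fold changes of *cop1-4* over *spaQ*. The uncharacterized gene AT3G43850 had -9.53, with 0 or 1 count in each *cop1-4* library, so this fitted value depends on the prior count.

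Flavonoid genes that met the same condition were *LDOX* (-6.79), whose fitted value also depends on the prior count because it was near the floor in *cop1-4*, *FLS1* (-3.71), *TT4* (-3.7) and *TT5* (-2.56). Seed genes that met it were *SESA5* (-5.67), *CRC* (-5.08), *CRA1* (-4.95), *EM1* (-4.92), *OLEO1* (-4.44) and *EM6* (-4.38). *KIN1* (-4.55) and *RAB18* (-3.4), which respond to abscisic acid, cold and drought, did so too. *cop1-4* replicate 2 lay well above the other *cop1-4* libraries for the seed genes, and no cause was tested.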

How the results depend on the processing

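For *cop1-4* over Col-0, 4725 to 5360 genes were called under DESeq2 size factors, library size alone, no filter on low counts, DESeq2, a fit of the compared genotypes only or the replicate block, against 4850, and 3579 with at least 10 counts in every library. Leaving out 1 library gave 4868 to 4971. The log2 limit of 2 written in the study's methods left 1501 genes, and no fold limit gave 14870. For *cop1-4* over *spaQ*, 1737 became 919 with at least 10 counts in every library, 526 with the limit of 2 and 10762 with no fold limit. Across these settings 0 genes called against Col-0 were called in the opposite direction. With the replicate block, 4846 genes were called against Col-0 and 1738 against *spaQ*. Equal replicate numbers of *cop1-4* and Col-0 deviated together with r of 0.0811 to 0.196, above 0.1 in 2 of 3 pairs. Of these libraries, 6 of 6 correlated best with their own number. The main fit was nonetheless unpaired, and the replicate block served as its alternative. With at least 10 counts in every library, 7 abscisic acid genes were called against 11, 3 salicylic acid against 8, 4 jasmonate against 7 and 7 glucosinolate against 14. Library size alone gave 6 B-box genes against 4, 5 meristem genes against 3 and 0 plastid transcription genes against 3. Leaving out 1 library gave 2 to 6 chaperone genes, 2 to 3 iron genes and 1 to 2 shade genes. Seed and flavonoid counts against *spaQ* under other settings were added after seeing the data. The sign changed for genes near 0. With library size alone *SPA2* had -0.0557 and *BCH1* -0.0273. Without 1 library in turn, *TT19* ranged over -0.339 to 0.139, *DFR* over -0.125 to 0.749 and *CRY2* over -0.057 to 0.00645. The cause was not tested. Depth limits genes near the floor of 3 counts, among them most seed genes in 2 *cop1-4* libraries.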

Other observations

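Gene families, taken by the first symbol of each gene in the annotation and so not complete, were also counted. Arabinogalactan proteins, glycoproteins of the cell surface, had 2 of 26 genes called higher and 16 lower, and fasciclin-like arabinogalactan proteins had 0 of 15 higher and 10 lower. Genes named in the rest of this paragraph were chosen after their values were seen. *AGP22* had 12.3, 13.4 and 11.2 CPM in *cop1-4*, against 342, 276 and 298 CPM in Col-0. *FLA9* averaged 284 ± 22 CPM in *cop1-4* and 1053 ± 46.8 CPM in Col-0 (SD, n = 3 each). Water channels of the plasma membrane and tonoplast had 0 of 15 called higher and 8 lower, with *PIP2;4* at 27.4 against 556 CPM and *TIP2;3* at 16.8 against 394 CPM in *cop1-4* and Col-0. MYB factors had 6 of 75 called higher and 37 lower, or 57.3% called. UMAMIT transporters had 0 of 34 called higher and 8 lower. All calls were decreases, 23.5% of the family, against 13.1% of all genes called lower and 10.7% called higher.

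WRKY factors had 5 of 49 called in each direction, a share of 20.4%, near the 23.8% of all genes tested. Histones had 0 of 18 called higher and 4 lower. These decreases were 22.2% of the family, against 13.1% of all genes called lower and 10.7% called higher.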
